A study of Mus musculus with 24 samples.

Results

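The genes described here were 39 interferon-stimulated genes of the mouse, read on whole-genome bead arrays in mononuclear phagocytes sorted from injured and uninjured muscle. They were taken by the gene symbol that the platform annotation gives to a probe, and 38 of the 39 had a probe, among 19057 genes with a probe of a single symbol. Ifi44 had none. Each gene was read from the probe with the highest mean among its probes detected on at least 8 of the 24 arrays. The genes fell into a type I group of 10 (Ifit, Oas and Mx genes), an interferon-gamma group of 8 (Gbp and Irg GTPases, Cxcl9 and immunoproteasome subunits) and 21 others, Ifi44 among them.

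Cells came from the tibialis anterior muscle of 4 mouse strains: Cx3cr1-/-, which lack a chemokine receptor of monocytes, Ccl2-/-, which lack a monocyte-attracting chemokine, Cx3cr1-/-Ccl2-/-, and wild-type C57Bl/6 (WT). Muscles were taken 4 days after an intramuscular injection of notexin, a snake venom phospholipase that kills muscle fibres, or were left untreated. At day 4, 4 subsets of CD11b+ Ly6G- NK1.1- cells were sorted: F4/80lo Ly6Chi (called Ly6Chi), F4/80lo Ly6Clo (called F4/80lo), and Ly6Clo cells with a high level of the same macrophage antigen and high or low Mgl1 (Mgl1hi, Mgl1lo). From untreated muscle the Mgl1hi and Mgl1lo subsets were sorted. Each strain and condition was 1 pool of 3 mice sorted once, so each of the 6 groups of subset and condition had 4 arrays, 1 per strain, and the 4 strains stood in as its replicates. A difference between strains within 1 subset rested on 1 array a strain, and strain, pool and sorting run cannot be told apart in it.

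Interferons are secreted signals of the innate and adaptive immune response. Type I interferons act through the receptor Ifnar1 and Ifnar2 on a complex that holds Stat2 and Irf9 and binds the interferon-stimulated response element (ISRE), whereas interferon-gamma acts through Ifngr1 and Ifngr2 on genes with a palindromic STAT site. The genes they switch on encode sensors of foreign RNA and DNA, antiviral proteins, chemokines that draw T cells, and the machinery that prepares antigen for T cells, and monocytes and macrophages are among the cells that express them most strongly. Both interferons reach overlapping gene sets, so a group name here is a label of the genes and not of the signal that acted.

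The sequences around the start sites were searched for both elements. RefSeq windows of 300 bases (250 before to 50 after the start, build GRCm38.p6) were found for 31 of the 39 genes. The ISRE core, TTTC followed by any 2 bases and TTTC again, read on both strands with overlapping matches kept, lay in the windows of 16 of these 31 genes (51.6%), against 3.99% of 27025 genes with a window. By group it was in 4 of 7 type I genes, 4 of 8 interferon-gamma genes and 8 of 16 others. The STAT site TTCNNNGAA lay in 9 of the 31 genes (29%), against 9.55% of all genes. By group it was in 2 of 7 type I genes, 2 of 8 interferon-gamma genes and 5 of 16 others, so it did not mark the interferon-gamma group. A match is only a run of letters, and neither binding nor use was measured. The 250 bases before the start are given for 5 genes to which the results below return: Ifit3 and Rsad2, higher in Mgl1lo cells at day 4, Isg15 and Cxcl10, lower in the same comparison, and Igtp, the widest ranging of the interferon-gamma group. Capitals mark ISRE cores on either strand and, in Igtp only, also the STAT site, which precedes the ISRE core there.
Ifit3 (chr19:34583279-34583528, plus strand): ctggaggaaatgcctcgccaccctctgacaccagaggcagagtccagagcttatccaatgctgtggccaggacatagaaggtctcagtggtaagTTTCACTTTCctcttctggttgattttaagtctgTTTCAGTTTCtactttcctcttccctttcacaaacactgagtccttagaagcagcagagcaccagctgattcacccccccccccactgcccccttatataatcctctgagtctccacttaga
Rsad2 (chr12:26456453-26456702, minus strand): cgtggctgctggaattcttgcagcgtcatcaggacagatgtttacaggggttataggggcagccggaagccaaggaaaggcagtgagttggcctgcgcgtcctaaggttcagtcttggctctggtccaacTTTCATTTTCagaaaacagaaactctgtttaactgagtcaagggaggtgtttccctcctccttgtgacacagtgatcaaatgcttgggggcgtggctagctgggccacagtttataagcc
Isg15 (chr4:156200819-156201068, minus strand): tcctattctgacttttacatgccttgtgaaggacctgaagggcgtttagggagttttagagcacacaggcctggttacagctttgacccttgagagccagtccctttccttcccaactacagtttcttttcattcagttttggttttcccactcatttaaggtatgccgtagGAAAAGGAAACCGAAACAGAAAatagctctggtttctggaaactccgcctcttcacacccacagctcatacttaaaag
Cxcl10 (chr5:92348890-92349139, minus strand): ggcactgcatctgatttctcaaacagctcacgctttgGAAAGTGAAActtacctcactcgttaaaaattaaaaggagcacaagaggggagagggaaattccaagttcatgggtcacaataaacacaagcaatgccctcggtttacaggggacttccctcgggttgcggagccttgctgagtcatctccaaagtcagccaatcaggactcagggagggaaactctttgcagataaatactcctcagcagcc
Igtp (chr11:58199306-58199555, plus strand): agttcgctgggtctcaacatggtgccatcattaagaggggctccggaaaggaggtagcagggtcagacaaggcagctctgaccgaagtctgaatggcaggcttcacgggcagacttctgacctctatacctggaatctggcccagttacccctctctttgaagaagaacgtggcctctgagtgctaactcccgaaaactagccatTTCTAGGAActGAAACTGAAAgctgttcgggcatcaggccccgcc
The ISRE cores began at bases -156 and -122 in Ifit3, -120 in Rsad2, -213 in Cxcl10 and -34 in Igtp, counted back from the start site. In Isg15 they began at -78, -72 and -66 and overlapped. The STAT site of Igtp began at -45. Ifit2, Oasl2 and Irf7, which the results also turn on, had no ISRE core in their windows.

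All levels below are log2 intensities after background correction and quantile normalization, and a probe counted as detected on an array at a detection p-value under 0.05. The arrays detected between 7054 and 18289 of 45281 probes (median 15786.5). The 4 lowest were the day-4 F4/80lo arrays of Cx3cr1-/- (7054) and Cx3cr1-/-Ccl2-/- mice (10072), the day-4 Mgl1hi array of Cx3cr1-/- mice (9369) and the untreated Mgl1lo array of Ccl2-/- mice (9896). The differences whose calls were lost without them are named below. Cx3cr1 stood at 4.91 and 5.02 in the Ly6Chi arrays of Cx3cr1-/- and Cx3cr1-/-Ccl2-/- mice, against 6.41 in Ccl2-/- and 7.56 in WT mice. It was detected at 7.21 and 6.46 on the 2 F4/80lo arrays and at 6.77 on the Mgl1hi array just listed. It was also detected at 5.32 and 5.41 on the day-4 Cx3cr1-/- and the untreated Cx3cr1-/-Ccl2-/- Mgl1lo arrays, so these arrays carry their strain only as labelled. The Ccl2 probe was not lower in Ccl2-deficient strains, and whether it lies in the deleted part is not known here. The sums of marker lists followed the gates, though not every gene in them did. The summed intensity of 6 monocyte genes was 3254 to 5019 in Ly6Chi cells and at most 1762 in the other day-4 subsets. That of 8 dendritic cell genes was 7976 to 16953 in F4/80lo cells and at most 4460 in the others. That of 6 macrophage genes was highest, among day-4 subsets, in Mgl1hi cells (12738 to 21309). Clec10a was the brightest of these genes there, at a mean of 13.28, against 11.99 in Mgl1lo cells. Mrc1 and C1qa were also highest in Mgl1hi cells. Adgre1 and Mertk were higher in Mgl1lo (11.64 and 9.09) than in Mgl1hi cells (11.22 and 8.45), and Fcgr1 was highest in Ly6Chi cells (8.92). Of 5 plasmacytoid dendritic cell genes, 1 to 3 were detected on every array.

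Across the 4 subsets sorted at day 4, interferon-stimulated genes stood highest, on average over the strains, in Ly6Chi cells, the subset with the strongest monocyte markers. Of the 38 genes, 30 had their highest day-4 mean in Ly6Chi cells, where 25.9% of all probes tested had theirs, and 28 had it there over all 6 groups. F4/80lo cells held the lowest day-4 mean for 19 of the 38, against 41.1% of all probes. Untreated Mgl1lo cells were the lowest of the 6 groups for 19 genes, 7 of them in the type I group. For the counts over 6 groups no share over all probes was taken. The untreated Mgl1lo group also holds 1 of the arrays with few detected probes. The mean level of the type I group was 8.19 ± 0.43 in Ly6Chi cells (SD, n = 4), 7.10 ± 0.35 in F4/80lo, 7.45 ± 0.27 in Mgl1hi and 7.53 ± 0.13 in Mgl1lo cells at day 4, and 7.13 ± 0.21 and 6.29 ± 0.34 in untreated Mgl1hi and Mgl1lo cells. The interferon-gamma group spanned a narrower range, with 8.59 ± 0.31 in Ly6Chi cells, 8.10 ± 0.14 in F4/80lo, 8.16 ± 0.11 in Mgl1hi and 8.09 ± 0.25 in Mgl1lo cells at day 4, and 7.88 ± 0.20 and 7.67 ± 0.17 in untreated Mgl1hi and Mgl1lo cells. In each of these means the arrays of the 4 strains were read together. A subset with fewer expressing cells and one with less RNA per cell cannot be told apart. The lead of Ly6Chi cells differed by strain. In WT arrays the type I mean was 7.80 in Ly6Chi and 7.78 in day-4 Mgl1hi cells, and the interferon-gamma mean 8.26 and 8.28. In Cx3cr1-/- arrays these means were 7.85 and 8.43 in Ly6Chi, against 7.71 and 8.41 in day-4 Mgl1lo cells. The type I mean of Ly6Chi cells was 8.56 in both Ccl2-/- and Cx3cr1-/-Ccl2-/- arrays. Their other day-4 subsets reached at most 7.58 and 7.48.

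**Figure D1:**
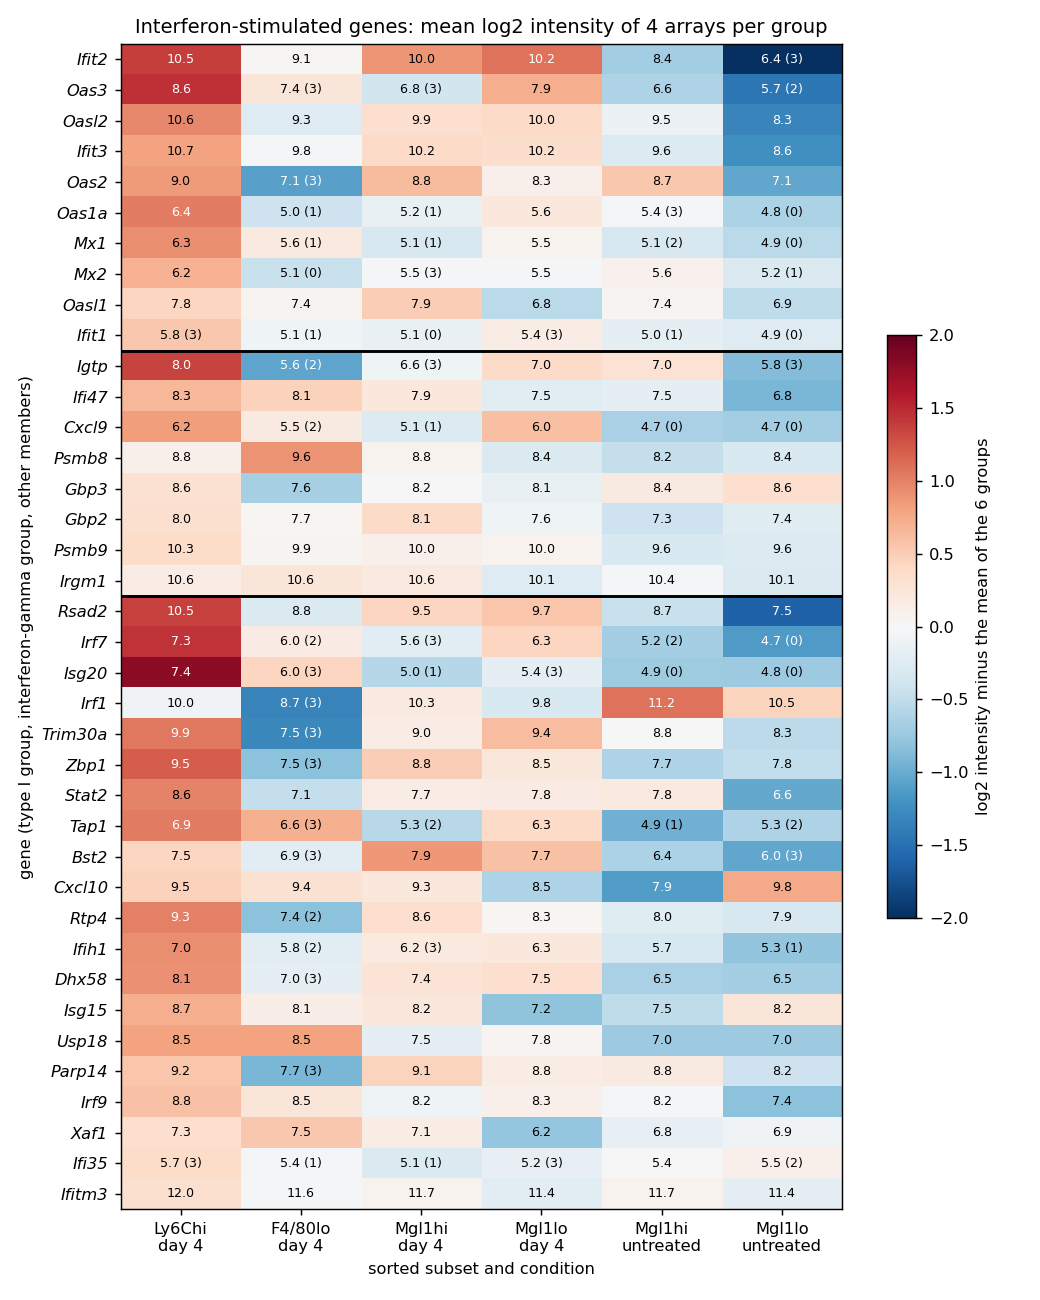
Mean log2 intensity of the 38 genes with a probe in the 6 groups (4 arrays each); the number in a cell is the mean, a number in brackets is how many of the 4 arrays detected the probe where that was fewer than 4, and the colour is the mean minus that of the 6 groups. Red is densest in the Ly6Chi column, where 28 genes peak, and blue in the untreated Mgl1lo column, the lowest for 19. No share over all probes was taken for these counts.

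**Figure D2:**
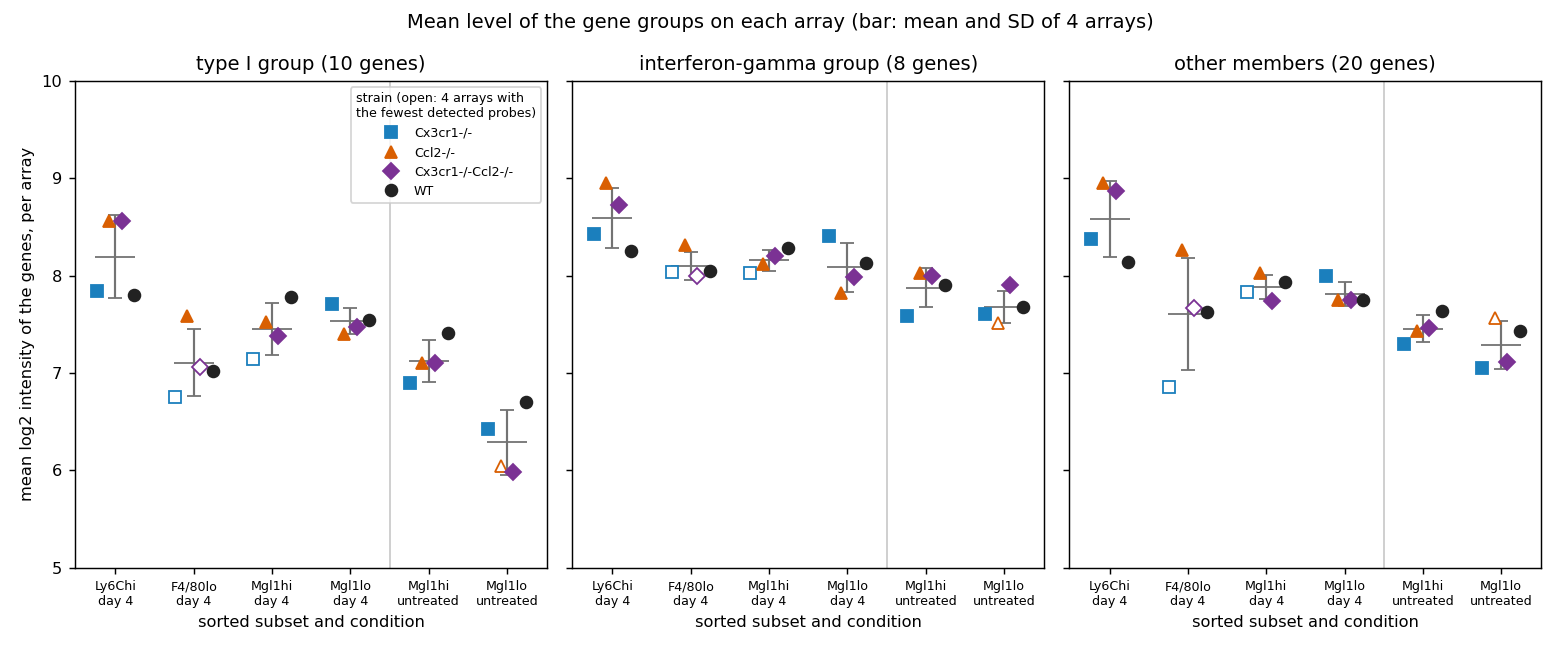
Mean log2 intensity of the type I, interferon-gamma and other genes on each array, by sorted subset and condition, with strains as symbols and the 4 arrays with the fewest detected probes open; bars are the mean and SD of 4 arrays. The type I mean runs from 6.29 in untreated Mgl1lo cells to 8.19 in Ly6Chi cells.

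Most of these differences between day-4 subsets did not pass the test over all probes. In a one-way limma fit over the 16 day-4 arrays, 7 of 37 tested genes had an adjusted p under 0.05 for any difference among subsets, at a background of 10.4% of 15320 probes: Isg20, Tap1, Irf7, Igtp, Psmb8, Ifit2 and Oas1a. With the strain as a block, which pairs subsets of one pool, there were 11 (background 19.2%). In Ly6Chi against F4/80lo cells 11 genes were higher and none lower (background 4.69% higher and 1.73% lower), and 33 of 37 differences were positive. The median difference was 0.98, against 0.22 over all probes. In Ly6Chi against Mgl1hi cells 3 genes were higher and none lower (background 1.55% and 1.02%) with a median difference of 0.64, against 0.14 over all probes. In Ly6Chi against Mgl1lo cells 1 gene, Isg20, was higher and none lower (background 0.104% and 0.163%), although 36 of 37 differences were positive. Their median was 0.72, against -0.00167 over all probes, and 12 genes had no overlap between the 4 Ly6Chi and the 4 Mgl1lo arrays (background 7.89%). The other 36 genes failed the correction, which only 41 of 15320 probes passed in this comparison. These 3 comparisons share the Ly6Chi arrays.

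The arrays with few detected probes moved these counts. Without the 3 of day 4, Ly6Chi cells were higher than F4/80lo cells for 5 genes (Oas2, Mx2, Igtp, Irf7 and Irf9, at a background of 2.69%), higher than Mgl1hi cells for 8 (Oas3, Mx1, Cxcl9, Irf7, Ifih1, Usp18, Isg20 and Tap1, background 6.52%) and higher than Mgl1lo cells for 5 (Irf7, Isg15, Isg20, Xaf1 and Rtp4, background 2.26%). Against F4/80lo cells Ifit2, Oas1a, Stat2 and Rsad2 were then no longer called, with differences of 1.15, 1.16, 1.10 and 1.41 (adjusted p = 0.072, 0.0739, 0.0668 and 0.0937), nor were Trim30a, Zbp1 and Rtp4. Leaving out 1 strain at a time gave 0 to 4 calls against F4/80lo, 0 to 5 against Mgl1hi and 0 to 1 against Mgl1lo cells, where 0.388% to 3.71%, 0.464% to 2.27% and 0.0254% to 0.282% of all probes were called. No call was left in any of them without the Cx3cr1-/-Ccl2-/- arrays.

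F4/80lo cells, in which dendritic cell markers were strongest, had few of these genes called against the macrophage subsets. Against Mgl1lo cells, Psmb8 and Xaf1 were higher and Ifit2 lower in F4/80lo cells (background 4.3% higher and 9.03% lower), with 5 genes called under the strain block (background 24.3%) and 0 without the 3 arrays with few detected probes (background 8.12%). With arrays scaled to one median in place of the quantile step, 0 were higher and 15 lower (background 38.8%), and the median over all probes was then -0.92. Against Mgl1hi cells, Tap1 alone was higher and none lower (background 2.23% and 3.66%). That call was lost whichever strain was left out and without the 3 day-4 arrays with few detected probes (1.02, adjusted p = 0.0739), and 3 genes were called under the block (background 7.43%). Between Mgl1hi and Mgl1lo cells at day 4, limma called 0 of 37 genes (background 0.268%), 5 had an unadjusted p under 0.05, and the median difference was 0.019, against -0.19 over all probes.

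In Mgl1lo cells many of these genes were higher after notexin injury. At day 4, 14 of 34 tested genes were higher and 2 lower in Mgl1lo cells than in untreated Mgl1lo cells (background 9.18% higher and 6.37% lower of 15624 probes, limma with strain in the model), and the median difference was 0.75, against 0.10 over all probes. In the type I group 6 of 8 genes were higher, with a median of 1.36. In the interferon-gamma group 0 of 7 were called on the probes used here, with a median of 0.14. A dimmer Irgm1 probe was called higher (1.40), against 0.02 on the probe used. The contrast between groups was not tested. Of the 19 other genes, 8 were higher and 2 lower. Ifit2 led, 13.6-fold higher, followed by Rsad2 and Oas3, 4.52-fold and 4.50-fold higher, and the 2 lower genes were Isg15 and Cxcl10. When each strain was left out in turn, Ifit2, Ifit3, Oasl2, Irf7 and Rsad2 were called every time (adjusted p at most 0.0316). The number called ran from 5 without the Cx3cr1-/-Ccl2-/- arrays to 14 without the Cx3cr1-/- arrays. Over these refits the share of all probes called ran from 5.54% to 14.1%. Without the untreated Ccl2-/- Mgl1lo array 11 were called, all higher (background 5.45%), and Oas2, Dhx58, Tap1, Isg15 and Cxcl10 were not (adjusted p 0.0504 to 0.125). With arrays scaled to one median 24 were higher and 0 lower (background 32.8%), at a median of 0.65 over all probes.

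In Mgl1hi cells 4 of 34 genes were higher at day 4 than in untreated muscle and none lower (background 1.13% higher and 2.84% lower): Ifit2, Zbp1, Bst2 and Cxcl10. The median difference was 0.41, against -0.11 over all probes. None of the 4 calls stood when any 1 strain was left out (adjusted p 0.0584 to 0.272), and without the day-4 Cx3cr1-/- Mgl1hi array Ifit2 alone was called, with differences of 1.07, 1.18 and 1.14 for Zbp1, Bst2 and Cxcl10 (adjusted p = 0.0897, 0.0807 and 0.131). The day-4 difference itself differed between the subsets for 4 genes (background 4.63% larger in Mgl1lo and 3.03% smaller): it was larger in Mgl1lo than in Mgl1hi cells for Ifit2 (2.19, adjusted p = 0.0358) and Rsad2 (1.30, adjusted p = 0.0361), and more negative for Isg15 (-1.79, adjusted p = 0.0272) and Cxcl10 (-2.70, adjusted p = 0.015). Ifit2 lost that call without the day-4 Cx3cr1-/- Mgl1hi array (adjusted p = 0.055), and Ifit2 and Rsad2 lost it without the untreated Ccl2-/- Mgl1lo array (adjusted p = 0.0638 and 0.0664). Leaving out a strain left at most 1 of these calls, Cxcl10 without WT, and scaling to one median gave 18 genes with a larger and 1 with a smaller difference in Mgl1lo cells (background 45.1% larger), at a median of 1.16 over all probes. For the other 30 genes no contrast between the subsets' day-4 differences was called, and the median over the 34 genes was 0.28, against 0.26 over all probes.

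The subsets also differed before injury. In untreated muscle 6 of 34 genes were higher and 1 lower in Mgl1hi than in Mgl1lo cells (background 5.44% and 2.73%), namely Ifit2, Ifit3, Oas2, Oasl2, Stat2 and Rsad2, and Cxcl10, which was lower. The type I median difference was 0.89 with 4 of 8 genes called, and the interferon-gamma median -0.03 with none. Only Oas2 and Cxcl10 were called whichever strain was left out. Untreated Mgl1lo arrays held summed monocyte markers of 1727 to 4028, against 413 to 994 in untreated Mgl1hi arrays, and summed dendritic cell markers of 4951 to 6274, against 3470 to 6206. Day-4 Mgl1lo arrays stood at 929 to 1231 and 1631 to 4109 for the same lists. Single genes weigh heavily in both sums. Of the monocyte genes Fn1 was the brightest in untreated Mgl1lo cells, at a mean of 10.55, against 8.37 in untreated Mgl1hi cells, and Ccr2 stood at 7.91, against 5.89. Plac8 stood at 6.12, against 6.07, and Vcan was detected on 1 untreated Mgl1lo array. Chi3l3 was at 9.18 in day-4 Mgl1lo cells, against 6.65 in untreated ones. The mean log2 level of the monocyte list overlapped between them, at 6.62 to 7.03, against 6.64 to 8.25. H2-Ab1 was the brightest dendritic cell gene by far, at 10.88 in day-4 Mgl1lo cells, against 12.24 in untreated ones. Fibroblast genes also differed between the untreated subsets, with sums of 1145 to 3084 in Mgl1hi, against 354 to 517 in Mgl1lo arrays. Those of macrophage genes did too (21279 to 23365, against 7751 to 11313). Sums of muscle fibre genes overlapped, at 332 to 869 in untreated Mgl1hi, against 140 to 423 in untreated Mgl1lo arrays. Their mean log2 level was 6.75 in Mgl1hi, against 5.57 in Mgl1lo cells. The part of other cells in the differences was not tested, nor that of a change of the cells within a gate between conditions.

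**Figure D3:**
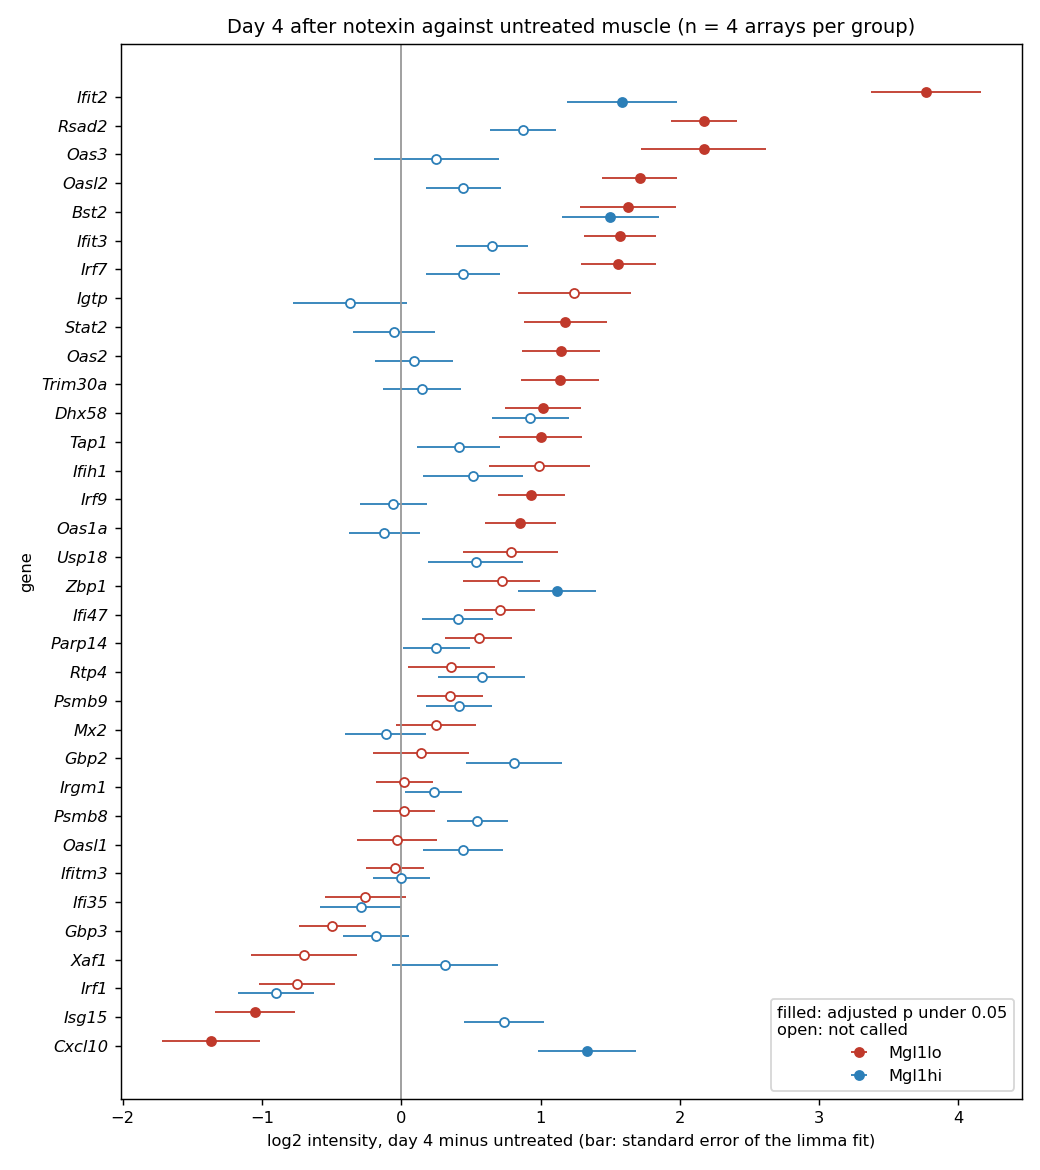
Difference in log2 intensity, day 4 after notexin minus untreated, for the 34 tested genes in Mgl1lo (red, upper point of each row) and Mgl1hi cells (blue, lower point), with the standard error of the limma fit and filled points at an adjusted p under 0.05. Red points lie above 1 for the leading type I genes while blue points mostly stay below 1, and Isg15 and Cxcl10 lie on opposite sides of 0 in the 2 subsets.

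Among the ligands, the probes of Ifna4, a type I interferon, and of the RNA sensor Tlr3 were detected on 0 of 24 arrays. Ifnb1, the interferon-beta gene, was detected on 6 of 24 arrays and not tested. In untreated Mgl1lo cells it stood at 7.82, 7.79 and 7.11 in Cx3cr1-/-, Ccl2-/- and Cx3cr1-/-Ccl2-/- mice and was not detected in WT mice (4.86). In untreated Mgl1hi cells it was 4.65, 4.77, 5.42 and 4.81 in Cx3cr1-/-, Ccl2-/-, Cx3cr1-/-Ccl2-/- and WT mice, and no day-4 array was above 5.43. The 3 high values were in the group where the type I genes were lowest. Ifng was detected on 2 of 24 arrays, at 7.91 on the F4/80lo array labelled Cx3cr1-/-, the array with the fewest detected probes, and at 5.37 on the untreated Mgl1hi array of Ccl2-/- mice.

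The receptor genes were detected on nearly all arrays, apart from Ifnar1, which was detected on 4 of 24 arrays. Ifnar2 was detected on every array and was 2.40-fold higher in Ly6Chi than in F4/80lo cells (adjusted p = 0.0412). Ifngr1 was detected on 23 of 24 arrays and Ifngr2 on all 24, with group means of 10.88 to 11.44 for Ifngr2 and no call in any comparison. Of 29 pathway genes with a probe examined beside the members (ligands, receptors, kinases, sensors and regulators), 21 were tested.

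Sensors and signalling genes were also called in several comparisons. Tlr7, the endosomal RNA sensor, was 3.90-fold higher in Ly6Chi than in F4/80lo cells, where 1 of 4 arrays detected it, and Mb21d1, the gene of the DNA sensor cGAS, 4.86-fold higher, whereas the kinase Jak2 was 2.61-fold lower (adjusted p 0.0117 to 0.048). Jak2 was higher and Tlr7 lower in F4/80lo cells than in Mgl1lo cells (1.90 and -2.28) and than in Mgl1hi cells (1.73 and -1.78). Without the 3 day-4 arrays with few detected probes the Tlr7 differences were 1.81, -2.13 and -1.95 and stayed called (adjusted p 0.00436 to 0.0165). Mb21d1 and Jak2 were no longer called between Ly6Chi and F4/80lo cells (0.89 and -0.85, adjusted p = 0.0568 and 0.265), nor Jak2 between F4/80lo and Mgl1hi cells (1.32, adjusted p = 0.0724). In Mgl1lo cells at day 4, 4 of 21 pathway genes were higher than in untreated cells (background 9.18%): Irf8, a transcription factor of monocyte development (2.31), Tlr7 (1.93), the RNA sensor gene Ddx58 (1.37) and the phosphatase gene Ptpn6 (0.79). Jak2 (-0.86), Stat3 (-0.74) and Socs3, an inhibitor of cytokine signalling (-1.46), were lower (background 6.37%). Socs3 was also lower in Mgl1hi cells at day 4 (-1.40, 1 of 21 called, background 2.84% lower). The day-4 difference was larger in Mgl1lo than in Mgl1hi cells for Irf8 (1.89) and Tlr7 (2.40) (background 4.63%). In untreated Mgl1hi against Mgl1lo cells, Irf8 (1.37) and Tlr7 (1.90) were higher and Irf5 (-0.67) lower.

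For the genes below, array values are given in the order Cx3cr1-/-, Ccl2-/-, Cx3cr1-/-Ccl2-/-, WT. Irf7, which drives the amplifying phase of type I interferon production, stood at 7.07, 7.72, 7.45 and 7.07 in Ly6Chi cells, 6.29, 6.27, 6.47 and 5.12 in F4/80lo, 4.84, 6.11, 5.73 and 5.91 in Mgl1hi and 6.59, 6.38, 5.71 and 6.51 in Mgl1lo cells at day 4. All 4 Ly6Chi arrays lay above every other array of the study. Irf7 was 2.45-fold higher in Ly6Chi than in F4/80lo cells (adjusted p = 0.0395) and 3.21-fold higher than in Mgl1hi cells (adjusted p = 0.0149), and the difference from Mgl1lo cells, 1.03 ± 0.35, missed the threshold (adjusted p = 0.364). In untreated muscle it was 4.92, 5.02, 5.16 and 5.72 in Mgl1hi and 4.52, 4.69, 4.51 and 5.23 in Mgl1lo cells, and no untreated Mgl1lo array detected it, so that day-4 Mgl1lo cells were at least 1.74-fold higher than untreated ones (adjusted p = 0.00161).

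Stat2, a subunit of the complex that binds the ISRE, measured 8.36, 8.99, 8.94 and 8.09 in Ly6Chi cells, 7.28, 7.61, 6.26 and 7.37 in F4/80lo, 7.29, 7.76, 7.65 and 8.29 in Mgl1hi and 8.18, 7.07, 7.87 and 7.92 in Mgl1lo cells at day 4. Untreated cells stood at 8.24, 7.89, 7.43 and 7.64 (Mgl1hi) and 7.08, 6.30, 6.70 and 6.24 (Mgl1lo). Every Ly6Chi array was above every F4/80lo array, a difference of 1.46 ± 0.35 (adjusted p = 0.0244) that was 1.10 without the 3 day-4 arrays with few detected probes and no longer called (adjusted p = 0.0668). Untreated Mgl1lo cells were the low group, 2.26-fold below day-4 Mgl1lo cells (adjusted p = 0.0157) with the lowest day-4 array level with the highest untreated one, and 2.33-fold below untreated Mgl1hi cells without overlap (adjusted p = 0.0196). Its partner Irf9 was 1.91-fold higher in Mgl1lo cells at day 4 than in untreated ones (8.35 ± 0.16 and 7.42 ± 0.47, SD, n = 4 each, adjusted p = 0.018), with no overlap.

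Irf1, an early factor of both interferon responses, was singled out after its values were seen. It was highest in untreated Mgl1hi cells at 11.68, 11.14, 10.80 and 11.01, followed by untreated Mgl1lo cells at 11.06, 10.46, 10.32 and 10.21. At day 4 it stood at 9.91, 10.43, 9.996 and 9.65 in Ly6Chi, 6.36, 9.80, 8.45 and 10.32 in F4/80lo, 9.81, 10.61, 10.32 and 10.28 in Mgl1hi and 10.02, 9.25, 9.81 and 9.96 in Mgl1lo cells, with the lowest value, not detected, on the F4/80lo array with the fewest detected probes. Day-4 arrays did not overlap the untreated ones in either subset, but on the brightest probe neither difference was called: -0.75 ± 0.28 in Mgl1lo (adjusted p = 0.078, and 0.0214 without the 3 day-4 arrays with few detected probes) and -0.90 ± 0.28 in Mgl1hi cells (adjusted p = 0.0796). All 5 of its probes were lower on average in Mgl1lo cells at day 4 (-1.47 to -0.75), and 3 of the dimmer ones were called there (adjusted p 0.00647 to 0.0334). All 5 had their highest group mean in untreated Mgl1hi cells.

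In the type I group, the Ifit genes encode proteins that bind foreign RNA and restrain its translation. Ifit2 stood at 10.32, 10.77, 10.83 and 10.12 in Ly6Chi cells, 9.10, 9.76, 8.75 and 8.96 in F4/80lo, 9.81, 10.18, 9.61 and 10.40 in Mgl1hi and 10.67, 9.55, 10.05 and 10.59 in Mgl1lo cells at day 4. It was 2.58-fold higher in Ly6Chi than in F4/80lo cells without overlap (adjusted p = 0.0215) and lower in F4/80lo than in Mgl1lo cells (-1.07, adjusted p = 0.038). Neither was called without the 3 day-4 arrays with few detected probes (1.15 and -0.86, adjusted p = 0.072 and 0.147). In untreated muscle it was 8.24, 8.12, 8.35 and 8.97 in Mgl1hi and 7.38, 5.05, 5.42 and 7.93 in Mgl1lo cells, where the Ccl2-/- array did not detect it. The untreated Mgl1lo arrays split by strain, with both Ccl2-deficient arrays below 5.5 and the other 2 above 7. The day-4 difference was 3.77 ± 0.40 in Mgl1lo (adjusted p = 2.98e-05) and 1.58 ± 0.40 in Mgl1hi cells (adjusted p = 0.0404), with no overlap in either, and untreated Mgl1hi cells were 3.93-fold above untreated Mgl1lo cells (adjusted p = 0.00631). Without the untreated Ccl2-/- Mgl1lo array the Mgl1lo difference was 3.39 (adjusted p = 9.9e-05), and the larger day-4 difference of Mgl1lo than Mgl1hi cells was no longer called.

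Ifit3, whose start-site sequence holds 2 ISRE cores, measured 10.51, 10.73, 11.02 and 10.38 in Ly6Chi cells, 9.90, 10.14, 9.56 and 9.69 in F4/80lo, 10.26, 10.36, 9.90 and 10.41 in Mgl1hi and 10.51, 9.93, 10.15 and 10.23 in Mgl1lo cells at day 4. Ly6Chi and F4/80lo arrays did not overlap, and the difference, 0.84 ± 0.25, missed the threshold (adjusted p = 0.0533). Untreated arrays stood at 9.27, 9.56, 9.41 and 10.09 (Mgl1hi) and 8.43, 9.22, 7.89 and 9.001 (Mgl1lo). Day-4 Mgl1lo cells were 2.97-fold above untreated ones (adjusted p = 0.0012) and untreated Mgl1hi cells 1.93-fold above untreated Mgl1lo cells (adjusted p = 0.0357), neither pair overlapping.

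The Oas genes encode synthetases that sense double-stranded RNA and activate an RNase. Oas2 measured 8.83, 9.26, 9.27 and 8.63 in Ly6Chi cells, 4.95, 8.36, 8.21 and 6.76 in F4/80lo, 8.44, 8.86, 8.70 and 9.16 in Mgl1hi and 8.85, 7.87, 8.19 and 8.13 in Mgl1lo cells at day 4, and 9.04, 8.72, 8.38 and 8.63 and 7.73, 6.31, 6.90 and 7.50 in untreated Mgl1hi and Mgl1lo cells. The low F4/80lo value, 4.95 and not detected, came from the array with the fewest detected probes, and without the 3 arrays with few detected probes the Ly6Chi difference was 1.44 (adjusted p = 0.037), against 1.93 ± 0.54 with them (adjusted p = 0.0441). Oas2 was 2.22-fold higher in Mgl1lo cells at day 4 (adjusted p = 0.0136) and 3.000-fold higher in untreated Mgl1hi than Mgl1lo cells (adjusted p = 0.00277), in both cases without overlap, while Mgl1hi arrays at day 4 and untreated overlapped.

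Oas3 stood at 8.33, 8.81, 9.02 and 8.41 in Ly6Chi cells, 6.10, 8.30, 7.40 and 7.90 in F4/80lo, 5.34, 6.85, 6.77 and 8.28 in Mgl1hi and 8.44, 7.79, 7.48 and 7.89 in Mgl1lo cells at day 4. Untreated values were 5.90, 6.61, 6.30 and 7.42 (Mgl1hi) and 5.98, 4.71, 5.13 and 7.09 (Mgl1lo), with 2 of the untreated Mgl1lo arrays not detected. With all arrays the only call was in Mgl1lo cells, 4.50-fold higher at day 4 (adjusted p = 0.00514). Oas1a measured 6.32, 7.06, 6.70 and 5.58 in Ly6Chi cells, 4.82, 5.10, 4.54 and 5.42 in F4/80lo, 4.60, 5.26, 5.24 and 5.82 in Mgl1hi and 5.18, 5.92, 5.94 and 5.39 in Mgl1lo cells at day 4, and 5.17, 5.48, 5.17 and 5.59 and 4.41, 5.44, 4.53 and 4.62 in untreated Mgl1hi and Mgl1lo cells. Only the Ly6Chi and day-4 Mgl1lo arrays all detected it. It was 2.73-fold higher in Ly6Chi than in F4/80lo cells, where 1 of 4 arrays detected it (adjusted p = 0.0253, and 0.0739 without the 3 day-4 arrays with few detected probes), and at least 1.08-fold higher in Mgl1lo cells at day 4 than in untreated ones, none of which detected it (adjusted p = 0.0359).

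Oasl2, an Oas-like protein, stood at 10.34, 10.96, 10.79 and 10.19 in Ly6Chi cells, 8.19, 10.26, 9.09 and 9.86 in F4/80lo, 9.77, 9.93, 9.79 and 10.26 in Mgl1hi and 10.15, 9.85, 9.89 and 10.09 in Mgl1lo cells at day 4, against 9.12, 9.40, 9.32 and 10.12 and 8.27, 7.31, 8.29 and 9.25 in untreated Mgl1hi and Mgl1lo cells. Mgl1lo cells were 3.28-fold higher at day 4 without overlap (adjusted p = 0.000921), and untreated Mgl1hi cells were 2.32-fold above untreated Mgl1lo cells (adjusted p = 0.0121) with 1 Mgl1lo array, WT, inside the Mgl1hi range. Mx2, a dynamin-like antiviral GTPase, was near background: 5.75, 6.64, 6.57 and 5.94 in Ly6Chi cells, 5.32, 5.06, 4.81 and 5.13 in F4/80lo, 4.91, 5.93, 5.50 and 5.69 in Mgl1hi and 5.74, 5.39, 5.44 and 5.38 in Mgl1lo cells at day 4, and 5.72, 5.40, 5.71 and 5.64 and 5.03, 6.09, 5.22 and 4.62 in untreated Mgl1hi and Mgl1lo cells. No F4/80lo array detected it, and Ly6Chi cells were at least 1.32-fold higher (adjusted p = 0.0279). The remaining type I genes, Ifit1, Mx1 and Oasl1, were not called with all arrays and the probes used here, with group means of 4.95 to 5.76, 4.87 to 6.33 and 6.84 to 7.88.

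Few genes of the interferon-gamma group passed a test. Igtp, a GTPase of the Irg family that attacks parasite vacuoles, ranged widest, at 7.49, 8.82, 8.30 and 7.47 in Ly6Chi cells, 4.69, 7.06, 4.82 and 5.86 in F4/80lo, 5.23, 6.81, 7.02 and 7.28 in Mgl1hi and 7.17, 6.88, 7.05 and 7.10 in Mgl1lo cells at day 4. In untreated muscle it stood at 6.93, 7.13, 6.74 and 7.01 (Mgl1hi) and 6.34, 4.62, 6.19 and 6.08 (Mgl1lo). The 4 values under 5.3, none of them detected, were exactly on the 4 arrays with the fewest detected probes. Ly6Chi cells were 5.32-fold above F4/80lo cells (adjusted p = 0.014), a difference of 2.41 that was 1.56 without the 3 day-4 arrays among them (adjusted p = 0.0241). The day-4 difference of 1.24 ± 0.41 in Mgl1lo cells missed the threshold (adjusted p = 0.052).

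Psmb8, a catalytic subunit of the immunoproteasome, stood highest in F4/80lo cells, at 9.88, 9.39, 10.12 and 9.12 there, against 8.90, 8.95, 8.91 and 8.50 in Ly6Chi, 8.98, 8.67, 9.13 and 8.41 in Mgl1hi and 8.34, 8.55, 8.56 and 8.29 in Mgl1lo cells at day 4. Untreated cells stood at 7.86, 8.41, 8.34 and 8.37 (Mgl1hi) and 7.99, 8.65, 8.73 and 8.29 (Mgl1lo). It was 2.28-fold higher in F4/80lo than in Mgl1lo cells without overlap (adjusted p = 0.0113), and 0.82 higher on the log2 scale without the 3 arrays with few detected probes (adjusted p = 0.0515). Cxcl9, a chemokine for activated T cells, measured 5.98, 6.72, 6.09 and 5.95 in Ly6Chi cells, 5.02, 6.03, 4.84 and 6.29 in F4/80lo, 5.28, 4.73, 4.76 and 5.55 in Mgl1hi and 6.88, 5.46, 5.65 and 5.85 in Mgl1lo cells at day 4, and was not detected on any of the 8 untreated arrays (4.73, 4.73, 4.63 and 4.74 in Mgl1hi and 4.68, 4.54, 4.73 and 4.70 in Mgl1lo cells). It was not tested against untreated cells, and no difference among day-4 subsets was called with all 16 arrays. Ifi47, another Irg GTPase, stood at 7.95, 8.97, 8.70 and 7.75 in Ly6Chi cells, 9.66, 7.54, 8.15 and 7.20 in F4/80lo, 7.26, 7.88, 8.53 and 7.89 in Mgl1hi and 7.54, 7.09, 7.36 and 7.88 in Mgl1lo cells at day 4, and at 6.94, 7.68, 7.97 and 7.35 and 6.32, 6.77, 7.17 and 6.78 in untreated Mgl1hi and Mgl1lo cells, with no call. Gbp2, Gbp3, Irgm1 and Psmb9 were not called on the probes used here either, and their group means spanned 7.25 to 8.06, 7.58 to 8.59, 10.12 to 10.65 and 9.59 to 10.26.

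The other members include antiviral effectors. Rsad2 encodes viperin, an enzyme that makes a chain-terminating nucleotide, and stood at 10.15, 11.20, 11.01 and 9.62 in Ly6Chi cells, 8.10, 9.99, 9.03 and 8.18 in F4/80lo, 9.52, 9.74, 9.09 and 9.81 in Mgl1hi and 9.81, 9.76, 9.62 and 9.53 in Mgl1lo cells at day 4. In untreated muscle it was 8.66, 8.45, 8.79 and 8.77 in Mgl1hi and 7.36, 7.06, 7.65 and 7.94 in Mgl1lo cells. The 4 untreated Mgl1lo arrays were below every other array. Mgl1lo cells were 4.52-fold higher at day 4 (adjusted p = 4.11e-05). The Mgl1hi difference of 0.87 ± 0.24 missed the threshold without overlap of the arrays (adjusted p = 0.0536), and untreated Mgl1hi cells were 2.24-fold above untreated Mgl1lo cells (adjusted p = 0.00689). Ly6Chi cells were 3.17-fold above F4/80lo cells (adjusted p = 0.0274), with the Ccl2-/- F4/80lo array inside the Ly6Chi range, a difference of 1.41 without the 3 day-4 arrays with few detected probes (adjusted p = 0.0937).

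Isg20, an RNA exonuclease, was the gene called against both macrophage subsets in Ly6Chi cells, at 6.95, 7.91, 7.74 and 6.82 there, against 4.94, 7.27, 6.13 and 5.67 in F4/80lo, 4.79, 5.03, 4.83 and 5.39 in Mgl1hi and 5.51, 5.51, 5.10 and 5.38 in Mgl1lo cells at day 4. It was not detected on any untreated array, at 4.75, 4.87, 4.89 and 4.95 in Mgl1hi and 4.65, 4.98, 4.62 and 5.12 in Mgl1lo cells. Ly6Chi cells were 5.09-fold above Mgl1hi (adjusted p = 0.00313) and 3.95-fold above Mgl1lo cells (adjusted p = 0.0469), in both cases without overlap, with 1 of 4 Mgl1hi and 3 of 4 Mgl1lo arrays detecting it. Without the 3 day-4 arrays with few detected probes the differences were 2.27 and 1.98 (adjusted p = 0.000641 and 0.00277). The call against Mgl1lo cells was lost without WT, Ccl2-/- or Cx3cr1-/-Ccl2-/- arrays (differences 1.76 to 2.16, adjusted p up to 0.935).

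Trim30a, a Trim protein that restrains Toll-like receptor signalling, measured 9.66, 10.29, 10.10 and 9.45 in Ly6Chi cells, 4.70, 9.24, 7.79 and 8.41 in F4/80lo, 8.09, 9.56, 8.79 and 9.41 in Mgl1hi and 9.73, 9.02, 9.24 and 9.74 in Mgl1lo cells at day 4, and 8.58, 8.69, 8.85 and 9.13 and 8.07, 8.03, 8.25 and 8.82 in untreated Mgl1hi and Mgl1lo cells. Zbp1, a sensor of Z-form nucleic acids that starts cell death, stood at 9.34, 9.94, 9.78 and 9.06 in Ly6Chi cells, 5.68, 9.07, 7.59 and 7.61 in F4/80lo, 8.17, 9.23, 8.85 and 9.01 in Mgl1hi and 8.40, 8.50, 8.60 and 8.69 in Mgl1lo cells at day 4, and at 6.87, 7.94, 7.55 and 8.42 and 6.44, 8.38, 7.88 and 8.60 in untreated Mgl1hi and Mgl1lo cells. Rtp4, a restriction factor, measured 9.30, 9.57, 9.26 and 8.89 in Ly6Chi cells, 6.69, 8.52, 5.88 and 8.61 in F4/80lo, 8.22, 8.69, 8.28 and 9.13 in Mgl1hi and 8.83, 8.04, 8.28 and 8.002 in Mgl1lo cells at day 4, and 7.79, 8.05, 8.02 and 8.15 and 7.85, 8.82, 7.53 and 7.51 in untreated Mgl1hi and Mgl1lo cells. In these 3 genes the lowest F4/80lo value was on an array with few detected probes. The differences of Ly6Chi from F4/80lo cells, 2.34 ± 0.67, 2.04 ± 0.49 and 1.83 ± 0.49 for Trim30a, Zbp1 and Rtp4 (adjusted p = 0.0471, 0.0253 and 0.0363), were 1.05, 1.19 and 0.69 without the 3 day-4 arrays with few detected probes and were no longer called (adjusted p = 0.0817, 0.0561 and 0.205). Against untreated cells, Trim30a was 2.21-fold higher in day-4 Mgl1lo cells (adjusted p = 0.0141) and Zbp1 2.17-fold higher in day-4 Mgl1hi cells (adjusted p = 0.0404).

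Tap1, the peptide transporter of antigen presentation, was 7.13, 7.20, 7.09 and 6.25 in Ly6Chi cells, 6.41, 6.86, 6.70 and 6.38 in F4/80lo, 4.51, 6.09, 5.17 and 5.53 in Mgl1hi and 6.39, 6.19, 5.96 and 6.51 in Mgl1lo cells at day 4, and 4.73, 4.66, 4.86 and 5.40 and 4.90, 4.75, 5.42 and 5.98 in untreated Mgl1hi and Mgl1lo cells. Mgl1hi cells were the low day-4 group, 3.02-fold below Ly6Chi cells (adjusted p = 0.0123) and 2.40-fold below F4/80lo cells (adjusted p = 0.0279), with no overlap and with 2 of 4 Mgl1hi arrays detecting it. Without the 3 day-4 arrays with few detected probes the second of these was no longer called (adjusted p = 0.0739). Mgl1lo cells were higher at day 4 than untreated (means 6.26 and 5.26, adjusted p = 0.0362), with the untreated WT array just inside the day-4 range. Bst2, or tetherin, which holds budding virus at the cell surface, stood at 7.47, 7.85, 7.15 and 7.55 in Ly6Chi cells, 6.29, 7.67, 6.47 and 7.06 in F4/80lo, 8.36, 8.25, 7.28 and 7.89 in Mgl1hi and 7.62, 7.60, 7.78 and 7.68 in Mgl1lo cells at day 4. Untreated cells were at 5.77, 6.17, 6.80 and 7.03 (Mgl1hi) and 5.13, 6.44, 5.73 and 6.87 (Mgl1lo). Bst2 was called in both macrophage subsets, 3.09-fold higher at day 4 in Mgl1lo (adjusted p = 0.0064) and 2.83-fold higher in Mgl1hi cells (adjusted p = 0.0288), without overlap in either. Of the rest, Xaf1 was 2.48-fold higher in F4/80lo than in Mgl1lo cells (adjusted p = 0.0278, and 0.0908 without the 3 day-4 arrays with few detected probes), and Dhx58, a regulator of RNA sensing, 2.03-fold higher in Mgl1lo cells at day 4 (adjusted p = 0.0234), with the untreated WT array inside the day-4 range. Ifih1, Usp18, Parp14, Ifi35 and Ifitm3 were not called with all arrays and the probes used here, with group means of 5.26 to 6.98, 6.995 to 8.54, 7.72 to 9.20, 5.09 to 5.74 and 11.40 to 11.95.

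Isg15 and Cxcl10 were the 2 genes called lower after injury on the probes used here. Isg15, a ubiquitin-like modifier and a member of the set, was singled out for array values after these were seen. It stood at 7.67, 7.56, 7.19 and 6.19 in Mgl1lo cells at day 4, against 8.26, 8.74, 7.93 and 7.88 in untreated Mgl1lo cells. In Mgl1hi cells it stood at 8.38, 8.15, 8.16 and 8.07 at day 4, against 7.07, 7.49, 7.61 and 7.64 in untreated ones. The arrays did not overlap in either subset, and the directions were opposite: -1.05 ± 0.29 in Mgl1lo (adjusted p = 0.0243) and 0.74 ± 0.29 in Mgl1hi cells, which missed the threshold (adjusted p = 0.148). In Ly6Chi and F4/80lo cells it was 8.25, 9.12, 9.23 and 8.17 and 6.95, 9.10, 8.31 and 7.996. WT was the lowest day-4 Mgl1lo array, and the Mgl1lo difference was no longer called without WT (-0.84, adjusted p = 0.0992), Ccl2-/- (-1.01, adjusted p = 0.0987) or Cx3cr1-/-Ccl2-/- arrays (-1.15, adjusted p = 0.0971), nor without the untreated Ccl2-/- array alone (-0.91, adjusted p = 0.0793).

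Cxcl10, a chemokine for activated T cells, stood at 9.05, 8.77, 8.53 and 7.45 in Mgl1lo cells at day 4, against 9.96, 10.21, 9.86 and 9.24 in untreated Mgl1lo cells, 2.58-fold lower without overlap (adjusted p = 0.0182). That call was lost without WT (adjusted p = 0.0882) or Cx3cr1-/-Ccl2-/- arrays (adjusted p = 0.0752), and without the untreated Ccl2-/- array alone (-1.15, adjusted p = 0.0668). In Mgl1hi cells it was 10.17, 9.06, 9.84 and 8.05 at day 4, against 8.11, 7.03, 8.98 and 7.66 untreated, 2.52-fold higher with overlapping arrays (adjusted p = 0.0487). Untreated Mgl1hi cells were 3.67-fold below untreated Mgl1lo cells (adjusted p = 0.0042). Ly6Chi and F4/80lo cells were at 8.63, 10.05, 10.50 and 8.89 and 9.34, 9.24, 10.44 and 8.42. Both Isg15 and Cxcl10 carry an ISRE core before their start sites, as Ifit3 and Rsad2 do. Untreated Mgl1lo cells, which held Cxcl10 highest, were also the group in which 3 arrays detected Ifnb1 above 7. The WT array of that group did not detect Ifnb1 (4.86) and held Cxcl10 at 9.24. A link between Ifnb1 and Cxcl10 was not tested. A second, dimmer probe of Cxcl10 had group means of 6.68 in Mgl1lo cells at day 4, against 7.13 in untreated ones, and 6.35 in Mgl1hi cells at day 4, against 5.46 in untreated ones, the same directions on a smaller scale.

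**Figure D4:**
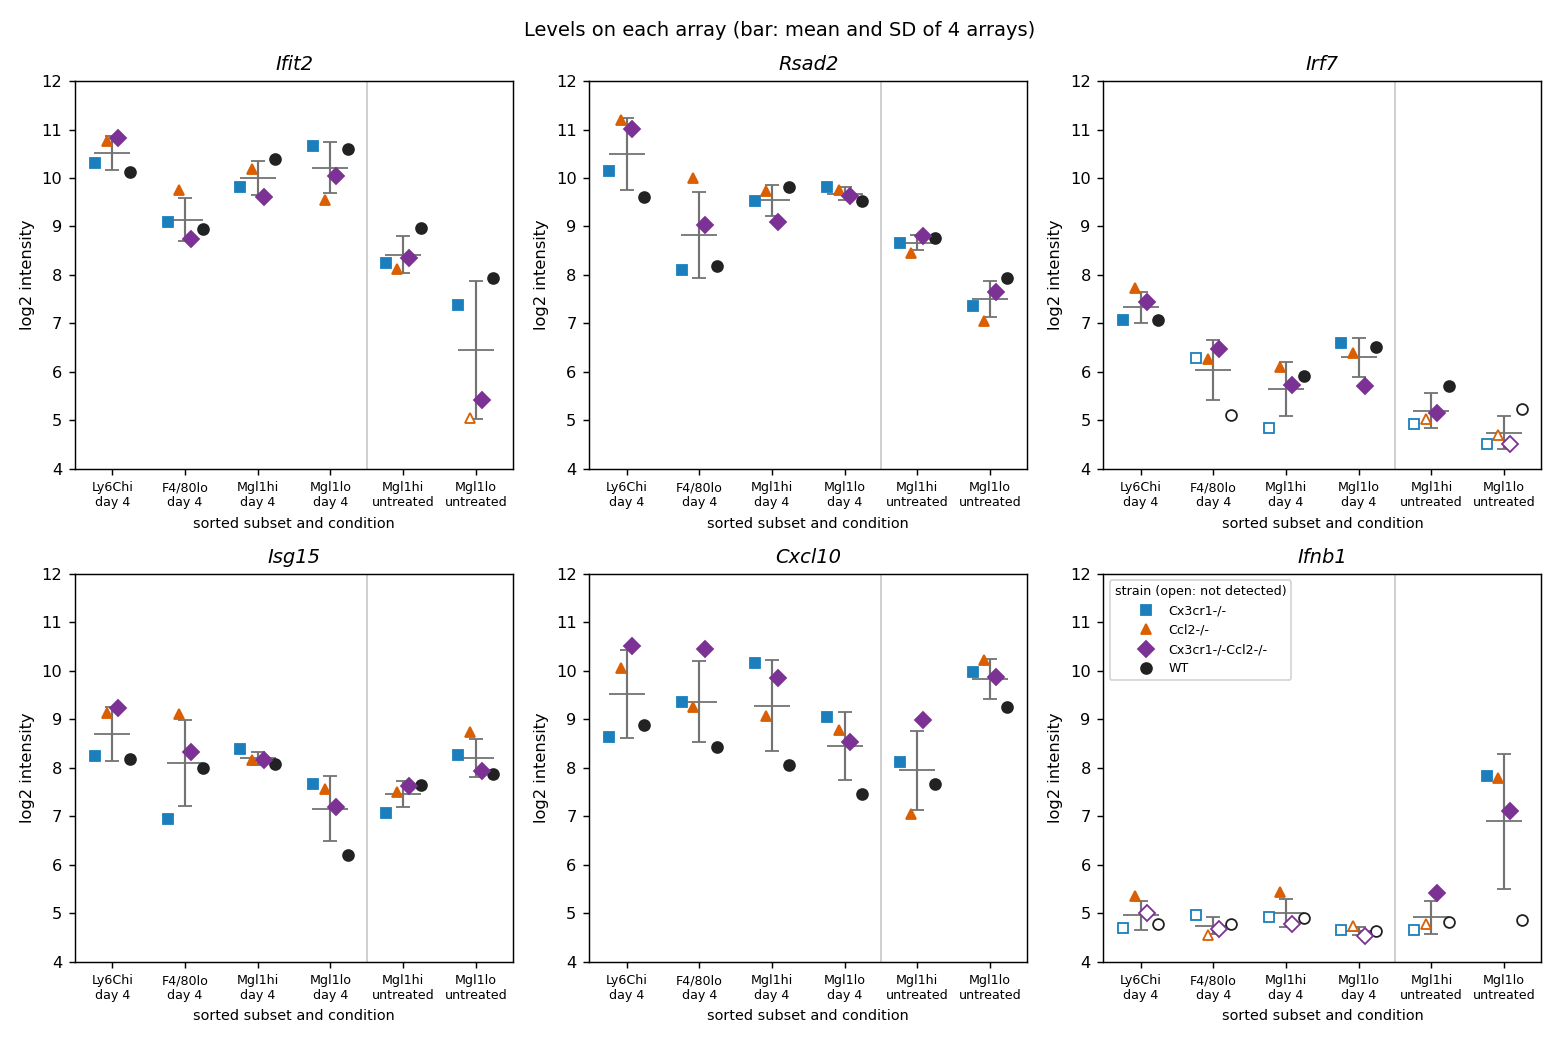
Log2 intensity of Ifit2, Rsad2, Irf7, Isg15, Cxcl10 and Ifnb1 on each array by sorted subset and condition, with strains as symbols, open where the probe was not detected, and bars for the mean and SD of 4 arrays. Ifit2, Rsad2 and Irf7 are lowest in untreated Mgl1lo cells, whereas Cxcl10 and Ifnb1 have their highest mean there (9.82 and 6.89).

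No gene of the set passed the test for a strain difference pooled over subsets. Ccl2 deficiency (Ccl2-/- and Cx3cr1-/-Ccl2-/- against Cx3cr1-/- and WT), Cx3cr1 deficiency, and Ccl2-/- against the other 3 strains each gave 0 calls of 37 at day 4 (backgrounds 0.0718%, 0.0326% and 0%), where 6, 4 and 3 genes had an unadjusted p under 0.05, and 0 of 31 in untreated cells (background 0% in each), where 4, 5 and 2 did. These fits take the subsets of a pool as replicates, so they measure how alike a difference is across sorts of the same mice. In a fit of Ly6Chi and Mgl1lo arrays alone 1 gene was called for Ccl2 deficiency, Oas1a, and the share of all probes called there is not given here.

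Within Ly6Chi cells, however, the set leaned one way with Ccl2 deficiency, a comparison added after the values were seen. Of 37 genes 35 were higher on average in the Ccl2-deficient arrays, and 31 had both Ccl2-deficient arrays above both others, at a background of 26.1% of probes. The median difference was 0.61, against -0.00799 over all probes, and was 0.77 for Ccl2-/- minus WT and 0.45 for Cx3cr1-/-Ccl2-/- minus Cx3cr1-/- mice. Rsad2, at 11.20 and 11.01 in Ccl2-/- and Cx3cr1-/-Ccl2-/- mice, against 10.15 and 9.62 in Cx3cr1-/- and WT mice, and Cxcl10, at 10.05 and 10.50, against 8.63 and 8.89 in the same order, show the size. Marker sums moved along the same split of these arrays: those of monocyte genes were 5019 and 4501 in Ccl2-/- and Cx3cr1-/-Ccl2-/- arrays, against 3254 and 3313 in Cx3cr1-/- and WT arrays. Those of macrophage genes were 5539 and 6945, against 7432 and 7275, and those of dendritic cell genes 2060 and 2778, against 4053 and 3353. Their part in the difference was not tested. With 2 arrays against 2, none was called (background 0%), 3 had an unadjusted p under 0.05 and the lowest adjusted p was 1. In Mgl1lo cells at day 4 the lean was opposite, with a median of -0.25 and 18 of 37 genes lower without overlap (background 23.6%), while 9 genes were higher without overlap in F4/80lo cells (median 0.40, background 11.9%) and the median in Mgl1hi cells was -0.074. The difference between Ly6Chi cells and the mean of the other subsets had a median of 0.58 and no call. The arrays within each strain came from 1 pool, so strain, pool and sort cannot be told apart here.

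**Figure D5:**
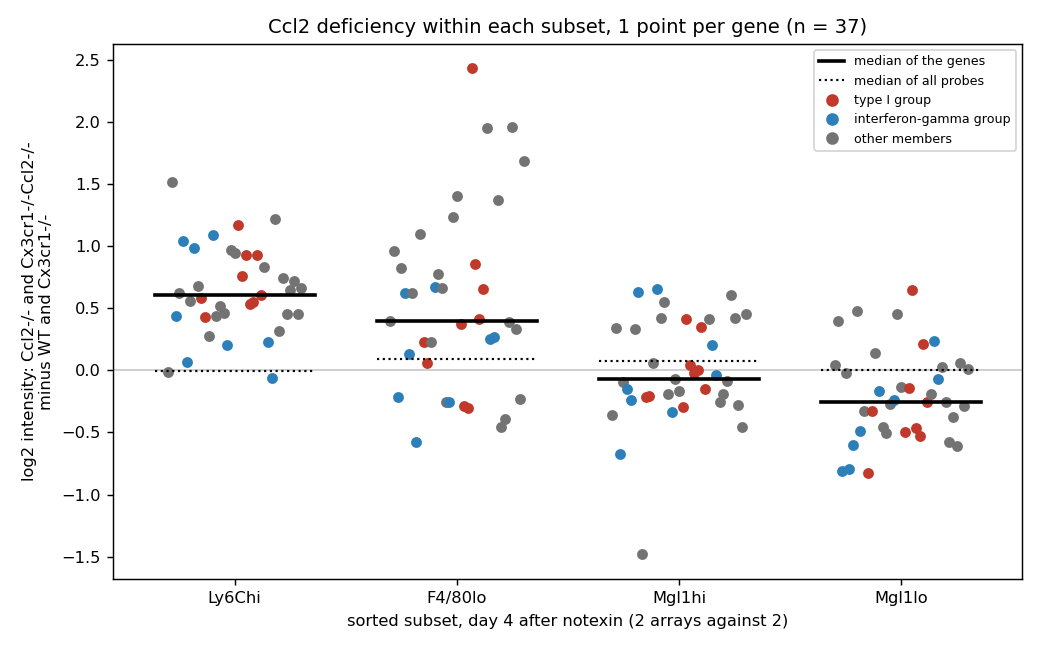
Difference in log2 intensity of each of 37 genes between Ccl2-deficient arrays (Ccl2-/-, Cx3cr1-/-Ccl2-/-) and the others (Cx3cr1-/-, WT) in each day-4 subset, 1 point per gene in alphabetical order, coloured by group; solid lines are the medians of these genes and dotted lines those of all probes. The solid line stands at 0.61 in Ly6Chi and at -0.25 in Mgl1lo cells, and no point passed the test.

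Single arrays that stood at least 2-fold apart from the other 3 strains of their group were counted without a test. There were 30 such values over the 38 genes and 24 arrays, none of them in Ly6Chi or untreated Mgl1hi cells. The F4/80lo array labelled Cx3cr1-/- gave the most, 2 higher (background 7.91%) and 8 lower (background 12.4%), and it was the array with the fewest detected probes. The F4/80lo array of Ccl2-/- mice was at least 2-fold higher for Igtp, Ifih1, Zbp1 and Isg20 (background 1.5%). In Mgl1lo cells at day 4, where all 4 arrays detected many probes, WT was at least 2-fold below the other strains for Isg15 and Cxcl10 (background 0.439%), and Cx3cr1-/- at least 2-fold above them for Cxcl9 (background 0.222%).

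Several genes were read by more than 1 tested probe, and the probes did not always give the same picture. In Ly6Chi against F4/80lo cells, 17 genes had several tested probes and 13 had one sign over all of them, and in Mgl1lo cells at day 4 against untreated ones 13 of 16 did. Another probe alone was called for 5 genes in the first comparison, Oasl1 (1.82), Gbp2 (1.42), Irgm1 (2.36), Parp14 (1.43) and Cxcl10 (1.90), all higher. In F4/80lo cells these Oasl1, Irgm1 and Cxcl10 probes were detected on 2 of 4 arrays each, and the Parp14 probe on 3. In the second comparison another probe alone was called for 4, Irf1 (lower) and Irgm1 (1.40), Parp14 (1.10) and Rtp4 (1.15), which were higher. A dimmer Parp14 probe was also called higher in Ly6Chi than in Mgl1hi (1.37) and Mgl1lo cells (1.59), and another higher in untreated Mgl1hi than in Mgl1lo cells (1.35). In Mgl1hi cells at day 4 dimmer probes of Ifit3 (0.95) and Dhx58 (1.08) were called higher than in untreated cells. Irgm1 is the clearest case, singled out after its values were seen. Its brightest probe had group means of 10.12 to 10.65, with F4/80lo highest. A second probe ran from 6.14 ± 1.58 (SD, n = 4) in F4/80lo cells, where 2 of 4 arrays detected it, to 8.51 in Ly6Chi cells. Igtp had the same lowest and highest groups and was likewise detected on 2 of 4 F4/80lo arrays. Values of the second Irgm1 probe without the 3 day-4 arrays with few detected probes are not given here.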

How the data were processed

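RNA of 24 sorted samples was amplified with the Ovation Pico WTA V2 kit, and the cDNA had been read on Illumina WG-6 v2 bead arrays. The deposited table holds a bead intensity per probe and array, which the authors exported from the GenomeStudio software named in the submitters' processing notes without normalization, and beside each intensity a detection p-value that the software gave against negative control beads. The authors' own processed values of the same arrays, on a linear scale and taken to log2 here, served only as an alternative. No column lacked a sample.

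Here intensities were background corrected and quantile normalized (neqc of limma 3.58.1 in R 4.3.3, offset 16) and given as log2. A probe was tested where its detection p-value was under 0.05 on 8 or more of a fit's 16 arrays (4 of 8 for untreated strain fits), with lmFit and eBayes, and p-values were adjusted over all probes by the Benjamini-Hochberg method. Of the probes, 34885 carried 1 gene symbol, 18 several and 10378 none. Day-4 subsets were compared in a one-way fit with strain left out, and day 4 against untreated and Mgl1hi against Mgl1lo in a fit with strain as a block. Subsets of one strain and condition came from the same pool of mice, which is what pairs them, and same-strain arrays deviated together (median correlation 0.162 over 24 pairs, lowest -0.00229, highest 0.441, 20 above 0.1), against -0.0618 over 72 pairs of different strains. Strain fits took the subsets of a pool as replicates, so their p-values measure only how alike the pool's sorts were. The limma fits were tested on simulated data.

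Members and lists were chosen with earlier results of these data known. Array values are given for members that passed a test, at most 10 a group by range of the group means, and for at least 3 members of each group. Alternatives were other background, scaling, filter, probe and strain choices, and the arrays' number limits the precision.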

Additional observations from a re-analysis of the deposited data

Results flagged for a closer look

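Of 218 sets of 4 arrays, 1 per gene and group, 12 held an array far from the other 3 by a gap test. Chance passes that test in about 1 of 20 sets, so 12 is near the number that chance alone would give. The F4/80lo array labelled Cx3cr1-/-, which detected the fewest probes, was low for Parp14 (4.85, others 8.58 to 8.81) and Dhx58 (5.64, others 7.25 to 7.57), and the WT F4/80lo array was low for Irf7 (5.12, others 6.27 to 6.47). Among Ly6Chi arrays, WT was low for Tap1 (6.25, others 7.09 to 7.20) and Psmb8 (8.50, others 8.90 to 8.95), and Cx3cr1-/-Ccl2-/- for Psmb9 (10.15, others 10.29 to 10.31). In Mgl1lo cells at day 4 the Cx3cr1-/- array was high for Mx2 (5.74, others 5.38 to 5.44) and the Ccl2-/- array low for Parp14 (8.52, others 8.86 to 8.89), and in Mgl1hi cells at day 4 the Cx3cr1-/-Ccl2-/- array was low for Gbp3 (7.94, others 8.31 to 8.37). In untreated Mgl1lo cells the Ccl2-/- array, which detected the fewest probes of its group, was low for Igtp (4.62, others 6.08 to 6.34). In untreated Mgl1hi cells the Cx3cr1-/- array was low for Psmb8 (7.86, others 8.34 to 8.41) and the WT array high for Ifih1 (6.12, others 5.55 to 5.64).

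The day-4 difference of Mgl1lo cells minus that of Mgl1hi cells passed the limma test of the difference itself for Ifit2 (2.19), Rsad2 (1.30), Isg15 (-1.79) and Cxcl10 (-2.70) on the log2 scale.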

How the results depend on the processing

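No called difference of a gene reversed in any setting. Counts of genes called out of 37 day-4 or 34 condition genes moved as follows. Percentages in brackets are the shares of all probes called in the same refit. A count without one does not tell whether these genes moved more than all probes did. Ly6Chi against Mgl1lo (1 call) gave 0 with no background correction, with median scaling, with the authors' processed values and with no filter. It gave 2 with the mean over probes and 2 with the second brightest probe. Without the 3 day-4 arrays with few detected probes it gave 5 (2.26% higher), and without one strain 0 to 1 (0.0254% to 0.282%). Ly6Chi against Mgl1hi (3 calls) gave 8 without those arrays (6.52% higher), 5 with all 24 arrays in 1 fit and 0 to 5 without one strain (0.464% to 2.27%). Ly6Chi against F4/80lo (11 calls) gave 6 with no filter, 5 without those arrays (2.69% higher) and 17 with all 24 arrays. Without one strain it gave 0 to 4 (0.388% to 3.71%). F4/80lo against Mgl1lo (3 calls) gave 15 with median scaling (38.8% lower), 0 without those arrays (8.12%) and 0 to 4 without one strain (1.11% to 10.5%). F4/80lo against Mgl1hi (1 call) gave 0 with median scaling and 0 without any one strain (1.63% to 5.13%). It gave 3 with no background correction, with the authors' values, with the mean over probes and with all 24 arrays. The test over 4 subsets (7 calls) gave 14 with median scaling, 4 with no filter, 13 with the mean over probes and 11 without those arrays. Without one strain it gave 0 to 4 (1.25% to 6.62%).

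At day 4 against untreated, Mgl1lo cells (16 calls) gave 10 with all 24 arrays and 5 to 14 without one strain (5.54% to 14.1%). Mgl1hi cells (4 calls) gave 0 with median scaling and with no filter, and 1 without those arrays and with all 24 arrays. Without any one strain Mgl1hi cells gave 0 (0.477% to 1.82%). The contrast between these subsets' day-4 differences (4 calls) gave 19 with median scaling (45.1% larger in Mgl1lo cells). It gave 2 without the untreated array with few detected probes, 1 with all 24 arrays and 0 to 1 without one strain (0.118% to 3.67%). Untreated Mgl1hi against Mgl1lo (7 calls) gave 4 with all 24 arrays and 2 to 7 without one strain (2.84% to 7.58%). Cx3cr1 deficiency (0 calls) gave 20 lower with median scaling, where the median over all probes at day 4 was -0.58. Ccl2 deficiency (0 calls) gave 1 in Ly6Chi and Mgl1lo arrays alone. The 2-fold count of 30 was 81 at 1.5-fold and 6 at 3-fold, and the median for Ccl2 deficiency in Ly6Chi cells was 0.89 with median scaling. Median scaling moved the median difference of all probes to between -0.92 and 1.16, so its counts are relative to that shift. The cause of the other moves was not tested.

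With the strain as a replicate block, which pairs sorts of one pool, the day-4 count was 11 for the test over subsets (19.2%). It was 5 for F4/80lo against Mgl1lo (24.3%), 3 for F4/80lo against Mgl1hi (7.43%) and 16 for Ly6Chi against F4/80lo. Without the block, Mgl1lo, Mgl1hi, their difference and the untreated comparison gave 15, 2, 3 and 8. The left-out untreated array, the second probe and the split by subset were chosen after seeing the data. Signal near background limits Mx2, Oas1a, Isg20 and Irf7 in untreated cells.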
